A study of Mus musculus with 20 samples.

Results

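The 10 genes described here carry out MHC class I antigen presentation in the mouse trachea: B2m, the heavy chain genes H2-K1, H2-D1 and H2-T23, the peptide transporter genes Tap1 and Tap2, the loading factor gene Tapbp, and the immunoproteasome genes Psmb8, Psmb9 and Psmb10. They were found by name, as every non-control probe whose gene name on the array equals 1 of the 10 symbols. This gave 17 of 41174 probes, and 16 of the 17, covering all 10 genes, were bright enough to be tested among 26064 probes. The remaining probe is named H2-D1 but annotated to a thymus leukaemia antigen mRNA, and 1 of 20 arrays gave it a signal well above background.

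RNA from 20 whole tracheas of mice, 1 array each, was measured in 4 groups of 5. The wild-type mice were C57/Bl6, and the Myd88KO mice were knockouts on that background for Myd88, the adaptor that carries signals from most Toll-like receptors and the interleukin-1 receptor family. All were labelled as 4 months old. The injured mice of each genotype had received 2% polidocanol, a detergent that strips the tracheal epithelium, 3 days before collection, and the uninjured controls had received none. The study's methods call the 5 samples of a group biological replicates, give mice of both sexes and a wider age range, and keep the Myd88KO mice as a colony of their own, so genotype and colony cannot be told apart. The sources used here do not give the sex of each mouse. Each of 5 slides held 1 array of every group, numbered as the replicate, and slides 1 and 5 were scanned on a different day from slides 2, 3 and 4.

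Between 57.5% and 67.8% of spots were well above background on an array, and an array's median correlation with the others of its group was between 0.945 and 0.981. The Myd88 probe was well above background on all 20 arrays, and whether it lies in the deleted part is not given in the sources used here. Its level lay at 1.42 to 2.00 in injured Myd88KO against 2.24 to 2.68 in injured wild-type. In uninjured tracheas it lay at 1.48 to 1.93 against 1.84 to 2.16, which overlap. Scgb1a1, a club cell product that marks airway epithelium, was well above background on 20 of 20 arrays. Levels here are log2 signals relative to the 75th percentile of the array, so a difference of 1 is a 2-fold change, and levels of different probes are not compared with each other.

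Class I molecules display peptides cut from a cell's own proteins to CD8 T cells and natural killer cells. The proteasome cuts proteins into peptides, and in cells exposed to interferon the immunoproteasome subunits take the place of its constitutive catalytic subunits. The TAP transporter moves the peptides into the endoplasmic reticulum, where tapasin holds the transporter and an empty heavy chain together until a peptide is bound. The heavy chain then leaves for the surface with beta-2 microglobulin. Most of these genes answer to interferon, in part through the IRF factors, and the classical class I genes also hold an NF-kB site and the SXY elements bound by the NLRC5 and RFX complex. In resting airway epithelium they are expressed at a basal level and are known to be raised during infection.

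Of the 10 genes, 8 lie on chromosome 17 in the mouse MHC, where RefSeq places Psmb9, Tap1, Psmb8 and Tap2 as 4 neighbours in a row. B2m and Psmb10 lie elsewhere, on chromosomes 2 and 8. RefSeq promoter windows of build GRCm38.p6, 250 bases before to 50 after the annotated start, were given for 9 of the 10 genes. The stretches below are shown because they hold the letters through which interferon and NF-kB are known to act on this pathway, and because the H2-K1 and H2-D1 stretches are nearly the same. Capitals mark the letters that matched, and each stretch lies upstream of its gene's start. The B2m stretch is chr2:122147528-122147590 on the + strand, H2-K1 is chr17:34000363-34000478 on the - strand, H2-D1 is chr17:35262903-35263018 on the + strand and H2-T23 is chr17:36032796-36032845 on the - strand.
B2m: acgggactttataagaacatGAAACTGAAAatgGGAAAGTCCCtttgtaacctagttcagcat
H2-K1: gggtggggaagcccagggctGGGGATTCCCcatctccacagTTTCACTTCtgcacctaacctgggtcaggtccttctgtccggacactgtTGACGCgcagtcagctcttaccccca
H2-D1: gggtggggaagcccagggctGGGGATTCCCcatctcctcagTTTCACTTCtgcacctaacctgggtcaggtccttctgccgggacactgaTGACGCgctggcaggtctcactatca
H2-T23: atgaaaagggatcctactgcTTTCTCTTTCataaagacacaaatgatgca

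The letters were searched on both strands, and no match of 1 motif overlapped another in these genes. The core of the interferon-stimulated response element, GAAA followed after any 2 bases by GAAA, was in the windows of B2m and H2-T23 and in 3.44% of all 32851 promoter windows. An NF-kB pattern, GGG, any 2 bases, TT, any base and CC, was in B2m, H2-K1 and H2-D1 and in 4.79% of windows. TGACGC, the letters of the SXY box that resemble a cAMP response element, was in H2-K1 and H2-D1 and in 7.4% of windows. GAAGTGAAA, searched after the sequences had been read because H2-K1 and H2-D1 share it on the reverse strand, was in those 2 genes and in 0.505% of windows. The H2-K1 and H2-D1 stretches were identical at 105 of 116 bases, or 90.5%, without gaps. The windows of Psmb10, Tapbp, Tap1 and Psmb9 held none of these letters.

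Tap1 and Psmb9 are transcribed away from each other, and their windows share 275 bases. The stretch between the 2 starts, chr17:34187331-34187555, is shown on the + strand, which is that of Tap1. It is shown because a transporter gene and a protease gene lie on either side of it.
Tap1 and Psmb9: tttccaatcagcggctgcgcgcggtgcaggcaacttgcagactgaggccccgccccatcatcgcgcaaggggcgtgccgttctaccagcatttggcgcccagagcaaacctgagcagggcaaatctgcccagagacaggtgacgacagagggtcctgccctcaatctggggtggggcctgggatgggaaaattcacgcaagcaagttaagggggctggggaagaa

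None of the 16 probes was called by limma at an adjusted p under 0.01 in any comparison of the groups. Injury of wild-type trachea called 5.16% of all 26064 probes and injury of Myd88KO trachea 0.372%. The Myd88KO share, 97 probes, depended on single arrays. It was 1089 probes without the injured Myd88KO array of slide 5, whose median correlation with its group was the lowest, 0.945. It was 6 without the injured Myd88KO array of slide 2 or 4, and 2127 with array weights. The wild-type count was 1346, or 1828 without the injured Myd88KO array of slide 5 and 2617 with array weights. The genotypes differed at 0.376% of probes in uninjured and at 0.38% in injured trachea, and the difference between the injury responses called 0%. At an unadjusted p under 0.05, limma found 5 of 16 probes higher after injury in wild-type, where 13.9% of all probes were higher at that threshold, and 1 of 16 lower after injury in Myd88KO, where 12.5% were lower. In the uninjured comparison 3 of 16 were higher beside 3.71% of all probes, in the injured comparison 5 of 16 were lower beside 7.97%, and in the contrast of the 2 injury responses 4 of 16 were below 0 beside 6.63%.

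Several of these counts at an unadjusted p under 0.05 changed when 1 array was left out. In the uninjured comparison, where slides pair the samples, 3 of 16 became 7 with the slide as a block. Leaving out 1 array there gave 0 without the uninjured wild-type array of slide 3, whose median correlation with its group was 0.957 against 0.975 to 0.981 for the other 4. It gave 1 without the uninjured wild-type array of slide 2 or 4 or the uninjured Myd88KO array of slide 1 or 3, 5 without the injured Myd88KO array of slide 1, 6 without the uninjured Myd88KO array of slide 4 and 7 without the uninjured wild-type array of slide 1. In the injured comparison 5 of 16 became 1 without the injured wild-type array of slide 4 and 2 without the injured wild-type array of slide 1 or 5 or the injured Myd88KO array of slide 3 or 5. It became 3 without the uninjured wild-type array of slide 2, 4 or 5, the uninjured Myd88KO array of slide 2 or 3 or the injured Myd88KO array of slide 4. After injury in wild-type 5 of 16 became 3 without the uninjured array of slide 3 or the injured array of slide 1 or 5. After injury in Myd88KO 1 of 16 became 0 without the uninjured Myd88KO array of slide 2, 3 or 5 or the injured one of slide 4 or 5, and 2 without the uninjured one of slide 4.

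By the one-way parametric test named in the study's methods, 0 of 16 probes were called after adjustment in the 4 comparisons of groups. For 0 of 16 probes were the groups separate, beside 12.5% of all probes for injury in wild-type, 3.5% for injury in Myd88KO, 2.43% for the genotypes uninjured and 2.01% for the genotypes injured.

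The differences were modest and often shared a sign. After injury in wild-type, 12 of 16 probes were above 0, with a median difference of 0.28 on the log2 scale against -0.016 over all probes. After injury in Myd88KO, 1 of 16 was above 0, with a median of -0.18 against -0.075. That count was 3 with normexp background correction, 4 with quantile normalization, where the median was -0.081, 4 with array weights, 4 without the uninjured Myd88KO array of slide 2 or the injured one of slide 5, 3 without the injured one of slide 1 and 5 without the uninjured one of slide 3. In uninjured trachea all 16 tested probes were higher in Myd88KO, with a median of 0.31 against 0.031, a count that was 15 with normexp background correction and 14 after quantile normalization. It was 13, with a median of 0.19, without the uninjured Myd88KO array of slide 3. It was 14 without the uninjured wild-type or Myd88KO array of slide 2, and 15 without the uninjured wild-type array of slide 3, 4 or 5. In injured trachea 7 of 16 were higher in Myd88KO, with a median of -0.068 against -0.029. The sign of that median turned to 0.0061 with quantile normalization, 0.078 with array weights, 0.014 without the injured wild-type array of slide 4 and 0.023 without the injured Myd88KO array of slide 5. The difference between the injury responses was below 0 for 15 of 16 probes, with a median of -0.40 against -0.079, and for 11 of 16 after quantile normalization. Probes of 1 gene and genes of 1 array share their RNA, so these counts are descriptions. In whole trachea more cells of a type and more RNA per cell cannot be told apart.

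**Figure D1:**
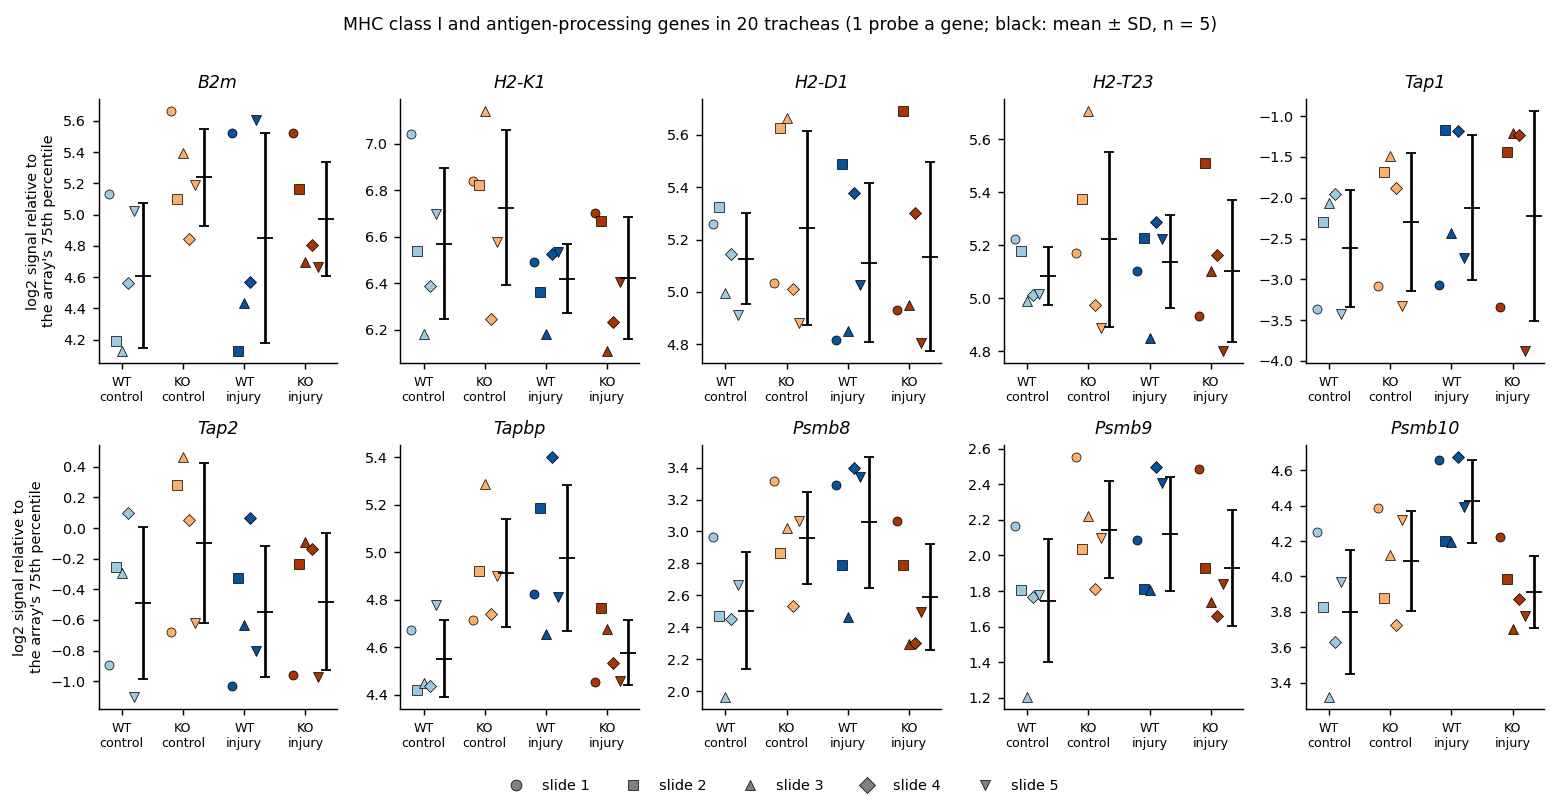
Level of each of the 10 genes in 20 tracheas, as log2 signal relative to the 75th percentile of the array, by group, with the marker shape giving the slide and black bars the mean ± SD of 5 arrays. In Psmb8, Psmb9, Psmb10, Tapbp, Tap1 and H2-T23 the injured wild-type mean lies above that of the uninjured wild-type and of the injured Myd88KO arrays. The groups overlap in every panel.

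Psmb10 encodes the immunoproteasome subunit that takes the place of Psmb7 and cleaves after basic residues. Its level on slides 1 to 5 was 4.25, 3.82, 3.32, 3.63 and 3.97 in uninjured wild-type and 4.66, 4.20, 4.19, 4.68 and 4.40 in injured wild-type. The ranges met only through the uninjured array of slide 1, and the injured array was above the uninjured array of its slide on all 5 slides. The difference was 0.63 (SE 0.18, 95% interval 0.25 to 1.00), or 1.54-fold, with an adjusted p of 0.0271 in limma. It was the 1 of 16 probes under an adjusted p of 0.05, where 12.6% of all probes were. Taking the slide as a block in limma gave an adjusted p of 0.00915 and taking the scan day as a block 0.00653, both under the threshold. Slides were not taken to pair the samples in this comparison. Deviations from the group means correlated within slides at -0.028 on slide 3 to 0.396 on slide 5. The difference was 0.77 on slides 2, 3 and 4 and 0.41 on slides 1 and 5. Leaving out 1 array at a time gave differences of 0.51 to 0.74 and adjusted p values of 0.0147 to 0.0701.

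In Myd88KO the Psmb10 level on slides 1 to 5 was 4.39, 3.88, 4.12, 3.72 and 4.32 uninjured and 4.22, 3.98, 3.70, 3.87 and 3.77 injured. Injured arrays were higher on 2 of 5 slides, and the difference was -0.18 (SE 0.18, 95% interval -0.55 to 0.20, adjusted p 0.635 in limma). Injured Myd88KO was below injured wild-type on all 5 slides, by -0.51 (SE 0.18, adjusted p 0.231, and 0.115 with the slide as a block). The injury difference in Myd88KO minus that in wild-type was -0.80 (SE 0.25, 95% interval -1.33 to -0.27) and was negative on all 5 slides. The adjusted p of that difference in limma was 0.396, or 0.277 when slides and 0.202 when scan days were blocked.

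Psmb8, also called LMP7, encodes the subunit that replaces Psmb5 and cleaves after large hydrophobic residues, and 2 probes measured it. The brighter probe read 2.96, 2.47, 1.96, 2.45 and 2.67 on slides 1 to 5 in uninjured wild-type and 3.29, 2.79, 2.46, 3.40 and 3.34 in injured wild-type. Every injured array was above the uninjured array of its slide. The difference was 0.55 (SE 0.22, adjusted p 0.109) at this probe and 0.61 (SE 0.22, adjusted p 0.0808) at the other, so the probes differed from each other by less than their SE. When slides were blocked the adjusted p values were 0.0362 and 0.0256, above the threshold.

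In Myd88KO the brighter Psmb8 probe read 3.32, 2.87, 3.02, 2.53 and 3.07 uninjured and 3.06, 2.79, 2.29, 2.30 and 2.50 injured. Here every injured array was below the uninjured array of its slide, and the difference was -0.37 (SE 0.22, 95% interval -0.83 to 0.09, adjusted p 0.368). The injury difference in Myd88KO minus that in wild-type was -0.93 (SE 0.31, 95% interval -1.58 to -0.27, adjusted p 0.396) and -0.89 at the other probe, negative on all 5 slides at both. The within-day values at the brighter probe were close to each other, -0.93 on slides 2, 3 and 4 and -0.91 on slides 1 and 5.

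Psmb9, or LMP2, encodes the subunit that replaces Psmb6. It read 2.17, 1.81, 1.20, 1.76 and 1.78 in uninjured wild-type, 2.09, 1.81, 1.80, 2.49 and 2.40 in injured wild-type, 2.55, 2.04, 2.22, 1.81 and 2.10 in uninjured Myd88KO and 2.49, 1.93, 1.74, 1.66 and 1.84 in injured Myd88KO. The wild-type injury difference was 0.38 (SE 0.20, 95% interval -0.05 to 0.80, adjusted p 0.252), with 4 of 5 slides higher, and slides 1 and 2 close to 0. In Myd88KO it was -0.21 (SE 0.20, adjusted p 0.602), with all 5 slides lower. The difference between the injury responses was -0.59 (SE 0.29, adjusted p 0.494).

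**Figure D2:**
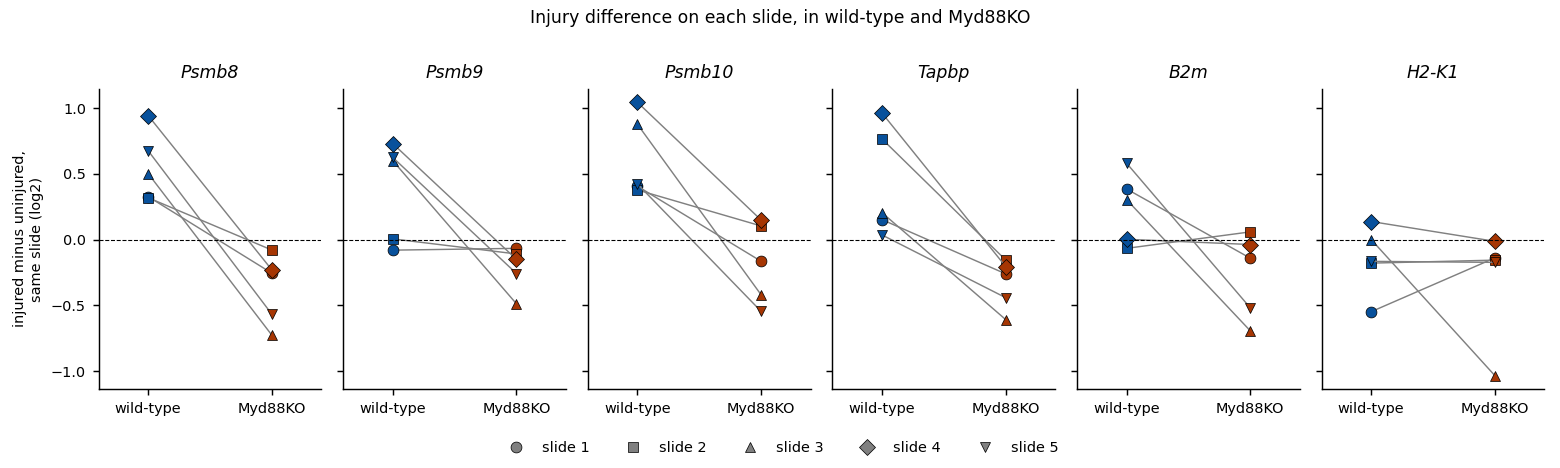
Injured minus uninjured log2 level on each slide, in wild-type (left) and Myd88KO (right), with grey lines joining the values of 1 slide. In Psmb8, Psmb10 and Tapbp all 5 lines run downwards, in Psmb9 4 of 5 do, in B2m 4 of 5 do and in H2-K1 3 of 5 do.

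The other subunits of the 20S proteasome give the immunoproteasome genes their setting. Psmb5, Psmb6 and Psmb7, the constitutive catalytic subunits, were all tested and 0 of 3 were called in any comparison. Their median difference after injury in wild-type was 0.17, between 0.13 and 0.18, and the difference between the injury responses had a median of -0.26. Of the 11 other 20S subunits, which form the outer rings and the rest of the inner rings, 0 were called, with a median of 0.087 after injury in wild-type and of -0.12 for the difference between the responses. The 3 immunoproteasome genes lay above both lists in the first, where the highest other subunit was at 0.25, and below both in the second, where the lowest was at -0.37. Psme1, a subunit of the PA28 activator known to be raised by interferon together with the immunoproteasome, differed by 0.22 (SE 0.17, adjusted p 0.445) after injury in wild-type and by -0.57 (SE 0.24, adjusted p 0.448) between the responses. It was 1 of 6 tested activator and assembly genes, 0 of them called in any comparison. After injury in wild-type 4 of the 6 were above 0, with a median of 0.14. Between the responses 2 of the 6 were above 0, with a median of -0.12, and Psme1 was the lowest.

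**Figure D3:**
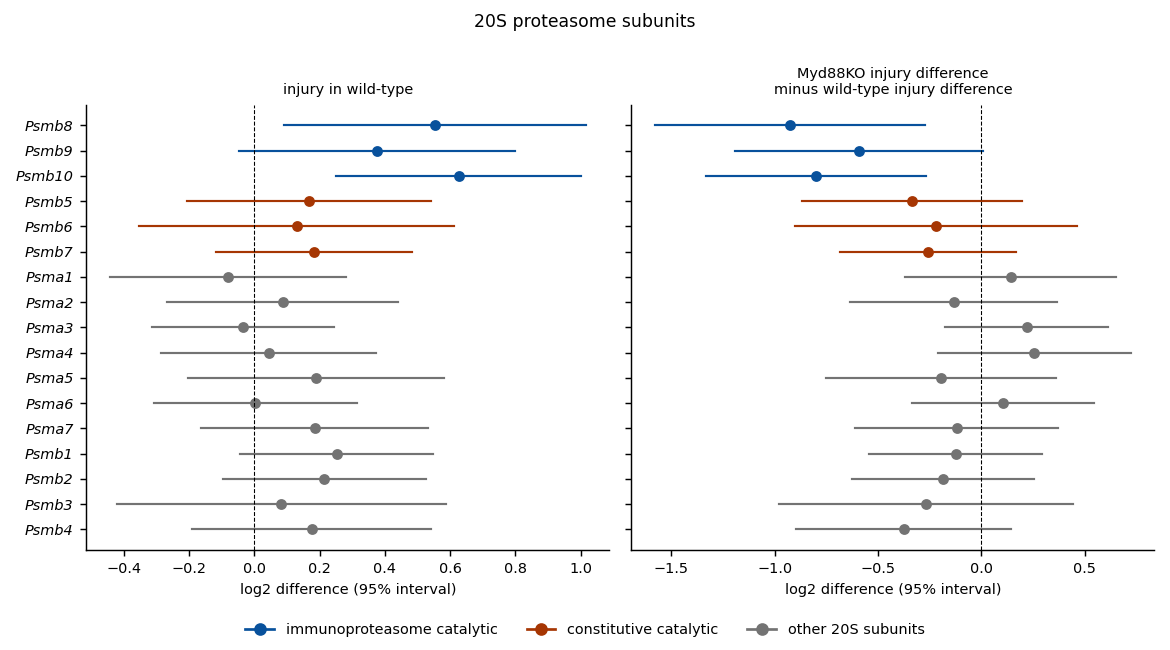
Log2 difference with its 95% interval for the 17 tested subunit genes of the 20S proteasome, after injury in wild-type (left) and as the Myd88KO injury difference minus that of wild-type (right). The 3 immunoproteasome subunits have the highest values on the left, 0.38 to 0.63, and the lowest on the right, -0.93 to -0.59.

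Tapbp encodes tapasin, which bridges the TAP transporter and an empty class I heavy chain, and 2 probes measured it. The brighter probe read 4.67, 4.42, 4.45, 4.44 and 4.78 in uninjured wild-type, 4.83, 5.19, 4.66, 5.40 and 4.81 in injured wild-type, 4.72, 4.92, 5.29, 4.74 and 4.90 in uninjured Myd88KO and 4.46, 4.76, 4.68, 4.53 and 4.46 in injured Myd88KO. Injured arrays were above uninjured ones on all 5 slides in wild-type and below them on all 5 slides in Myd88KO. The differences were 0.42 (SE 0.15, 95% interval 0.10 to 0.74, adjusted p 0.076) and -0.33 (SE 0.15, 95% interval -0.65 to -0.01, adjusted p 0.234). In wild-type the difference was 0.64 on slides 2, 3 and 4 and 0.094 on slides 1 and 5. On slides 1 to 5 it was 0.15, 0.77, 0.21, 0.96 and 0.04, so slide 3 lay nearer to slides 1 and 5. The part of the scan day in its size was not tested.

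The difference between the injury responses of Tapbp was -0.76 (SE 0.22, 95% interval -1.21 to -0.31), negative on all 5 slides, with an adjusted p of 0.396 in limma. The dimmer probe, from another Tapbp transcript record, had -0.38 (SE 0.40) and was negative on 4 of 5 slides. Its injury differences were 0.32 (SE 0.29) in wild-type and -0.05 (SE 0.29) in Myd88KO. Other chaperones and proteases of peptide loading were tested as a list of 8 genes, and 0 were called in any comparison, with a median of 0.13 after injury in wild-type. Pdia3, also called ERp57, the oxidoreductase bound to tapasin, had the lowest p of the list in Myd88KO and differed by -0.47 after injury there (SE 0.13, adjusted p 0.0595).

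Tap1 and Tap2 encode the chains of the peptide transporter. Tap1 read -3.37, -2.30, -2.06, -1.96 and -3.43 in uninjured wild-type and -3.07, -1.18, -2.44, -1.18 and -2.74 in injured wild-type. In Myd88KO it read -3.09, -1.68, -1.49, -1.89 and -3.32 uninjured and -3.34, -1.44, -1.21, -1.24 and -3.88 injured. All 8 arrays of slides 1 and 5 lay below all 12 arrays of slides 2, 3 and 4, whatever their group: -3.88 to -2.74 against -2.44 to -1.18. Slides 1 and 5 were scanned on the same day, and the part of the scan day in this split was not tested.

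Against that spread the Tap1 injury difference was 0.50 in wild-type (SE 0.56, 95% interval -0.67 to 1.67, adjusted p 0.611), higher on 4 of 5 slides, and 0.07 in Myd88KO (SE 0.56, adjusted p 0.96). When slides were blocked the wild-type adjusted p was 0.183. Tap1 was dim, well above background on 19 of 20 arrays. Tap2 read -0.89, -0.25, -0.30, 0.10 and -1.10 in uninjured wild-type and -1.03, -0.33, -0.63, 0.06 and -0.80 in injured wild-type, a difference of -0.05 (SE 0.29, adjusted p 0.928). In Myd88KO the Tap2 difference was -0.38 (SE 0.29, adjusted p 0.496), with all 5 slides lower. For Tap2 slides 1 and 5 differed from the others by -0.80 on average, and its ranges on the 2 scan days just overlapped.

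**Figure D4:**
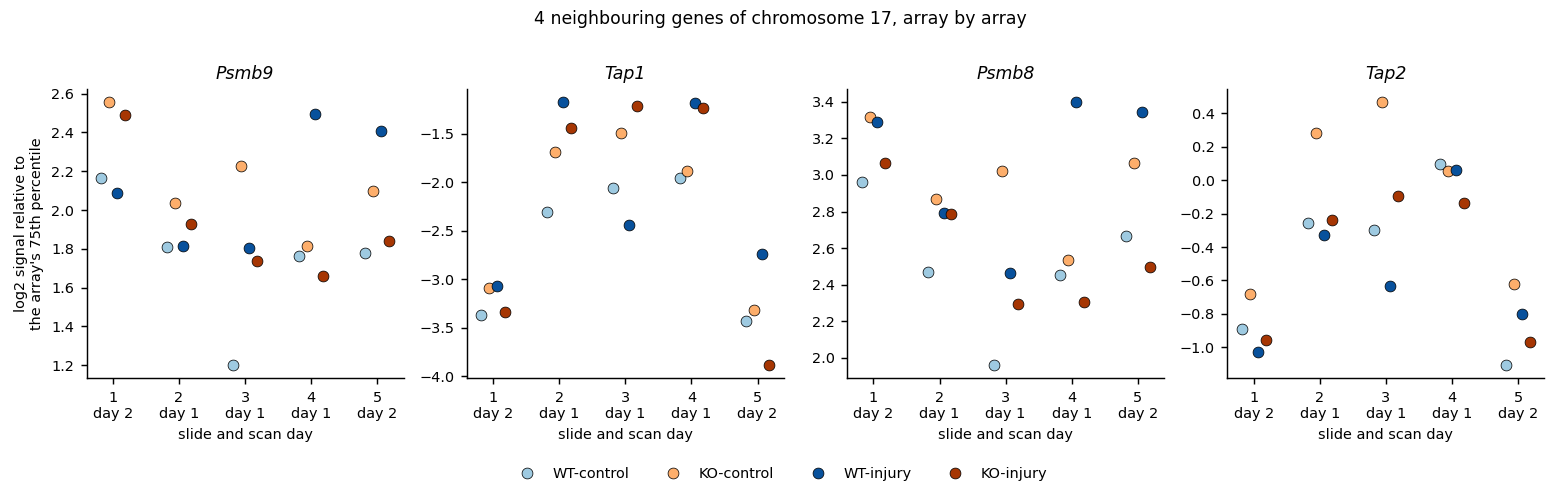
Log2 level of Psmb9, Tap1, Psmb8 and Tap2, in their order on the chromosome, on each slide, with the scan day under the slide number and colours for the 4 groups. Tap1 on slides 1 and 5 lies between -3.88 and -2.74, below every array of slides 2, 3 and 4, while Psmb9 and Psmb8 show no such split.

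Over the 20 arrays Tap1 and Tap2 had a Pearson r of 0.84 and Psmb8 and Psmb9 an r of 0.92. Tap1 and Psmb9, which share the stretch printed above, had an r of -0.25. Both scan days enter these r values. The mean of slides 1 and 5 minus that of slides 2, 3 and 4 was -1.61 for Tap1 and -0.80 for Tap2. It was 0.32 for Psmb9 and 0.41 for the brighter Psmb8 probe. The part of the scan day in these r values was not tested. Psmb10, from another chromosome, had an r of 0.90 with Psmb8. Among the 45 pairs of the 10 genes r ranged from -0.41 to 0.92 with a median of 0.40. These points share arrays, slides and scan days, and the correlations are given as descriptions.

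B2m encodes beta-2 microglobulin, the light chain of every class I molecule. At its brightest probe it read 5.13, 4.19, 4.13, 4.57 and 5.03 in uninjured wild-type and 5.66, 5.10, 5.39, 4.84 and 5.19 in uninjured Myd88KO. Myd88KO was higher on all 5 slides, and the difference was 0.63 (SE 0.29, 95% interval 0.03 to 1.23, adjusted p 0.852). A second B2m probe on the same mRNA, spotted 10 times on each array, had the largest difference of the 16 in this comparison, 0.82 (SE 0.31, 95% interval 0.16 to 1.47), or 1.76-fold. The adjusted p was 0.631 in limma, 0.0646 when slides and 0.0649 when scan days were blocked. The third B2m probe, taken from a separate cDNA record, differed by 0.095 (SE 0.26), so the probes of this gene disagreed.

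After injury the brightest B2m probe read 5.52, 4.13, 4.43, 4.57 and 5.61 in wild-type and 5.52, 5.16, 4.70, 4.81 and 4.67 in Myd88KO. The injury difference was 0.24 in wild-type (SE 0.29, adjusted p 0.636) and -0.27 in Myd88KO (SE 0.29, adjusted p 0.651), neither larger than the spread between arrays. At the third probe the wild-type injury difference was 0.61 (SE 0.26, 95% interval 0.06 to 1.15, adjusted p 0.137), with all 5 slides higher.

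H2-K1 and H2-D1 encode the classical heavy chains of this mouse strain, and H2-T23 encodes Qa-1, a nonclassical chain that shows class I leader peptides to natural killer cells. Class I genes are close copies of each other, so a probe named for one may also bind transcripts of another, and their values are uncertain to that extent. The brightest H2-K1 probe, spotted 10 times on each array, ranged over 6.18 to 7.04 in uninjured wild-type, 6.25 to 7.14 in uninjured Myd88KO, 6.18 to 6.53 in injured wild-type and 6.11 to 6.70 in injured Myd88KO. Its injury difference was -0.15 (SE 0.18, 95% interval -0.53 to 0.23, adjusted p 0.642) in wild-type and -0.30 (SE 0.18, 95% interval -0.68 to 0.08, adjusted p 0.373) in Myd88KO. The other 2 H2-K1 probes, both from a separate cDNA record, differed by 0.0072 and -0.29 in wild-type.

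H2-D1 differed by -0.01 after injury in wild-type (95% interval -0.43 to 0.40) and H2-T23 by 0.05 (95% interval -0.28 to 0.39). In Myd88KO the differences were -0.11 (95% interval -0.53 to 0.31) and -0.12 (95% interval -0.46 to 0.22). These intervals leave room for a change in either direction, and a p that misses the threshold does not show that the groups were equal. On all 5 slides the brightest H2-K1 probe was lower after injury in Myd88KO and the third H2-K1 probe was lower after injury in wild-type, and neither had 1 sign on all 5 slides in the other genotype.

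Of the 15 tested other class I and class I-like chains, 1 was called after injury in wild-type, beside 5.16% of all probes, and 0 elsewhere. Mr1, which shows vitamin metabolites to mucosal-associated T cells, fell by 0.83 on the log2 scale (SE 0.19, adjusted p 0.00772). The median of the list was 0.095 after wild-type injury and -0.12 after Myd88KO injury. H2-T10 differed by 0.36 (SE 0.18, adjusted p 0.929) between uninjured Myd88KO and wild-type, the lowest p of the list in that comparison.

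**Figure D5:**
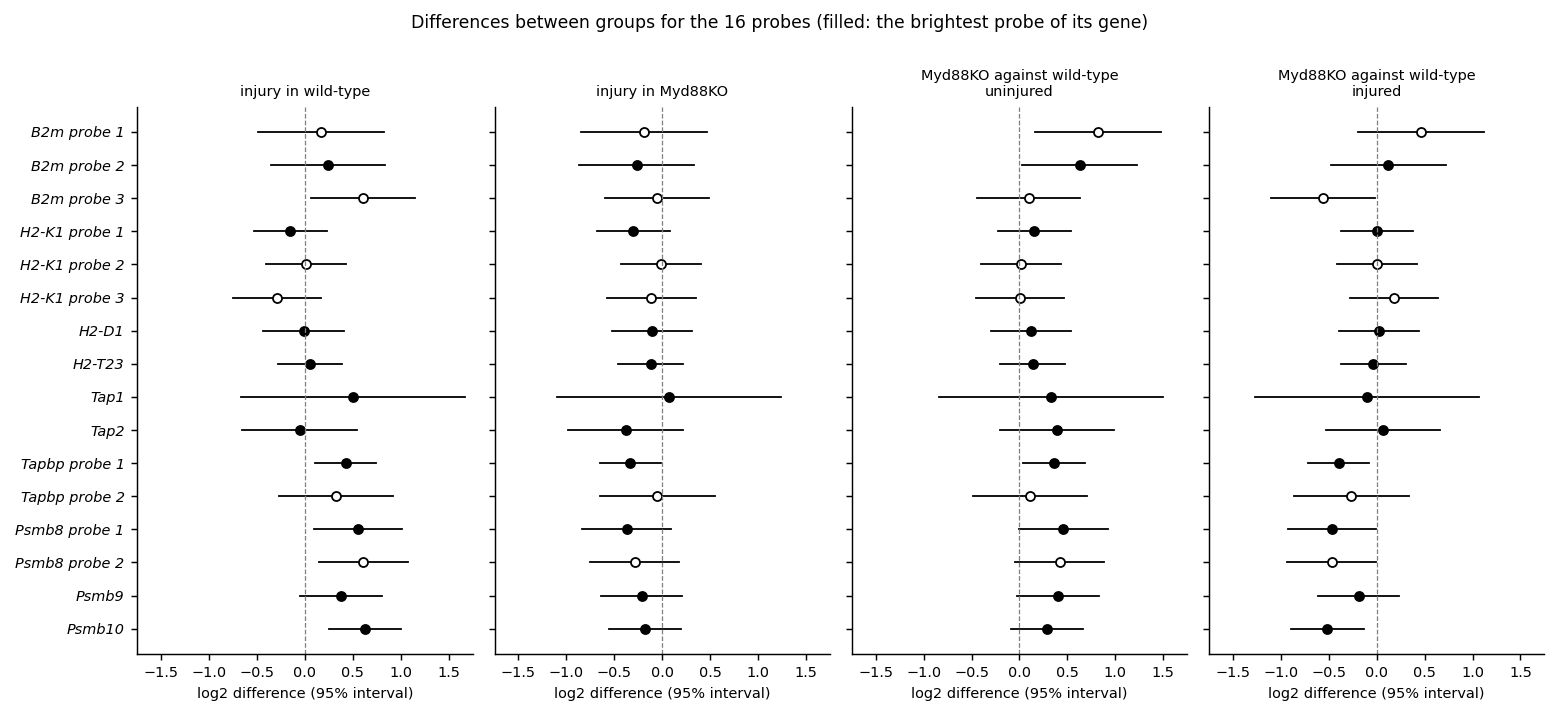
Log2 difference with its 95% interval for the 16 tested probes in the 4 comparisons of groups, with the brightest probe of each gene filled. The Psmb8, Psmb10 and brighter Tapbp intervals lie above 0 after injury in wild-type and below 0 in injured Myd88KO against injured wild-type, and none of the 16 probes was called.

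In uninjured trachea the 16 probes were all higher on average in Myd88KO, but slide 3 weighed most in this. The median over the 16 probes was 0.09, 0.46, 0.78, 0.06 and 0.11 on slides 1 to 5, and slide 3 held the highest difference for 13 of 16 probes. The uninjured wild-type array of slide 3 had the lowest Psmb8, Psmb9, Psmb10, H2-K1 and B2m level of its group, and the uninjured Myd88KO array of slide 3 had the highest H2-K1, H2-D1, H2-T23, Tap1, Tap2 and Tapbp level of its group, at each gene's brightest probe. Psmb8, Psmb9 and Psmb10 were higher in Myd88KO on all 5 slides, by 0.46 (SE 0.22), 0.40 (SE 0.20) and 0.29 (SE 0.18), with adjusted p values in limma of 0.913, 0.947 and 0.999. With the slide, which pairs these samples, as a block the adjusted p values were 0.435, 0.588 and 0.692. At its brighter probe Tapbp differed by 0.36 (SE 0.15, adjusted p 0.772, or 0.62 with the block), also on all 5 slides. The dimmer Tapbp probe differed by 0.11 (SE 0.29, adjusted p 0.999), higher on 3 of 5 slides.

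Markers of T and B cells and class II genes were also mostly higher in uninjured Myd88KO, and limma called 0 of them. Of 10 T cell markers 8 were higher in Myd88KO, with a median of 0.48 and 2 higher at an unadjusted p under 0.05, and their summed level was 0.90 to 1.98 in wild-type and 1.11 to 2.08 in Myd88KO. All 9 tested class II genes were higher, with a median of 0.33 and 3 at an unadjusted p under 0.05, and all 3 tested B cell markers were higher, with a median of 0.21. Of all probes 55.7% were above 0 here, and 3.71% were higher at that p. Of 6 neutrophil markers 1 was higher, with a median of -1.80 and 3 lower at that p. Pan-leukocyte markers were higher at 3 of 5, with a median of 0.047. Macrophage and dendritic markers were higher at 5 of 8 (median 0.048), and natural killer and cytotoxic markers at 3 of 5 (median 0.035). The part of these cells in the uninjured class I values was not tested.

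In injured trachea 9 of 16 probes were lower in Myd88KO. The brighter Psmb8 probe differed by -0.47 (SE 0.22, adjusted p 0.393), Tapbp by -0.40 (SE 0.15, adjusted p 0.272) and Psmb9 by -0.19 (SE 0.20, adjusted p 0.744). The brightest B2m probe differed by 0.12 (SE 0.29, adjusted p 0.905), and the third B2m probe by -0.56 (SE 0.26, adjusted p 0.379), which was -2.24 on slide 5 and between -0.75 and 0.18 on the others. The B2m probe spotted 10 times differed by 0.46 (SE 0.31, adjusted p 0.58, or 0.244 with the slide as a block), higher on 4 of 5 slides. The B2m probes thus disagreed in sign. By slide the median over the 16 probes was -0.20, 0.11, 0.22, -0.16 and -0.49, so slides 2 and 3 had the other sign. These comparisons share groups with the injury comparisons above and are not independent of them.

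Regulators of class I transcription were tested as a list of 9 genes, and 1 was called, after injury in wild-type, beside 5.16% of all probes. Irf8, a factor of myeloid cells and of the interferon response, rose by 0.98 (SE 0.19, adjusted p 0.00236). Irf1, which binds the response element of the immunoproteasome and Tap1 genes, differed by 0.54 (SE 0.16, adjusted p 0.0276). The median of the list was 0.26 after wild-type injury and 0.0027 after Myd88KO injury. No probe was matched to Nlrc5, the class I transactivator, by name.

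The 19 interferon-stimulated genes outside the pathway were tested as a list, and limma called 0 of them in any comparison. After injury in wild-type 18 of 19 were above 0, beside 48.3% of all probes, with a median of 0.42. At an unadjusted p under 0.05 limma found 6 higher and 1 lower, where 13.9% of all probes were higher. After injury in Myd88KO 1 of 19 was above 0, beside 41.6%, with a median of -0.52. In uninjured trachea all 19 were higher in Myd88KO, beside 55.7%, with a median of 0.41. Between injured genotypes the median was -0.44, with 6 of 19 lower at that p beside 7.97% of all probes. Between the injury responses it was -0.96, with 9 of 19 lower at that p beside 6.63%. Rsad2, or viperin, had the lowest p after injury in wild-type, with a difference of 1.37 (SE 0.36, adjusted p 0.0155), and differed by -1.67 (SE 0.36, adjusted p 0.0292) between injured Myd88KO and injured wild-type. Usp18, a brake on interferon receptor signalling, differed by -0.94 after injury in Myd88KO (SE 0.24, adjusted p 0.0386). Of the 5 tested interferon and receptor genes 0 were called, and Ifng and Ifnb1 did not pass the filter on dim probes.

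Class II presentation, the parallel pathway of antigen-presenting cells, had 1 of 9 tested genes called, after injury in wild-type, beside 5.16% of all probes. Ctss, the protease that trims the invariant chain and is abundant in macrophages, rose by 2.84 (SE 0.58, adjusted p 0.00443). The median of the 9 genes was 0.22 after wild-type injury and 0.10 after Myd88KO injury.

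Immune cells express class I genes and the immunoproteasome strongly, and most of their tested leukocyte, macrophage and dendritic markers were above 0 after injury in both genotypes. Of 5 tested pan-leukocyte markers 3 were called higher after injury in wild-type (Cd53, Laptm5 and Coro1a) and all 5 were above 0, with a median of 1.71. In Myd88KO all 5 were also above 0, with a median of 0.63 and 0 called. The log2 of their summed level was 2.56 to 3.74 in uninjured wild-type and 4.17 to 5.80 in injured wild-type, against 3.09 to 3.99 and 3.04 to 4.82 in Myd88KO. The injured Myd88KO array of slide 5 had the 3.04. Of all probes 5.16% were called after injury in wild-type and 0.372% in Myd88KO, where 1089 of 26064 were called without that array. The counts called in the 2 genotypes are therefore not compared. After injury in Myd88KO 15 of 16 class I probes were below 0 and 1 was above. The count above was 4 with quantile normalization or array weights and 5 without the uninjured Myd88KO array of slide 3. Of 8 macrophage and dendritic markers 5 were called higher in wild-type, Cd68 by 3.25, Mpeg1 by 2.20, Adgre1 by 2.01 and Itgax by 1.56 the most. Their summed level, in which the brightest markers weigh most, was 8.20 to 9.02 in uninjured and 8.32 to 8.97 in injured wild-type. In Myd88KO 7 of 8 were above 0, with a median of 0.82, 4 at an unadjusted p under 0.05 and 0 called. Of 6 neutrophil markers 1 was called, Csf3r, higher by 4.03, and the list had a median of 3.32 in wild-type and of 2.30 in Myd88KO. The part of these cells in the Psmb8, Psmb10 and Tapbp differences was not tested.

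Markers of the cells that read class I molecules gave no call in the higher direction after injury. Of all probes 5.16% were called in either direction after injury in wild-type and 0.372% in Myd88KO. Of 10 T cell markers 0 were called higher and 1, Cd247, was called lower, by -1.20 in wild-type and by -1.69 in Myd88KO, and the summed level was 0.90 to 1.98 uninjured and 0.71 to 1.39 injured in wild-type. Of 5 tested natural killer and cytotoxic markers 0 were called, with a median of -0.56 in wild-type, and Ncr1, Klrk1 and Prf1 did not pass the filter on dim probes. Of the airway secretory markers 3 of 5 were called lower in wild-type and 2 of 5 in Myd88KO, with Scgb1a1 at -7.93 and -6.25. In each genotype 0 of 5 were above 0. Their summed level was 10.5 to 11.3 in uninjured wild-type and 9.36 to 9.69 in injured wild-type. Of 4 tested ciliated markers 1, Dnah5, was called in wild-type, lower by -3.96, and 0 of 5 basal cell markers were called. The part of these epithelial markers' loss in the class I values was not tested.

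The profile of the 10 genes, the mean of their standardised levels, was compared with each of the other 26048 tested probes over the 20 arrays. The most alike was Plbd2, a lysosomal protein, with a Pearson r of 0.85, followed by Oas1a, an interferon-stimulated sensor of viral RNA, at 0.84 and Pttg1ip at 0.81. A probe named only by a transcript had 0.81, Limd2, Cnpy3 and the class I chain H2-T10 had 0.79 and Shisa5 had 0.78. These r values are descriptions over arrays that share slides and groups.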

How the data were processed

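Whole-trachea RNA of 20 mice, in 4 groups of 5, was labelled with Cy3 and hybridised to 1-colour Agilent mouse arrays. Per the file headers the authors extracted the deposited processed signal intensities with Feature Extraction 9.5.1.1, which subtracts background. The deposited value table held the same intensities within a ratio of 0.995 to 1.005, and 0 columns belonged to other samples.

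Here each log2 value was the log2 of the deposited processed signal minus the array's 75th percentile over non-control spots. Outlier-flagged spots (1960 values) were left out, spots of a probe were averaged, and probes well above background on at least 10 of 20 arrays were tested (63.3% of 41174). The 4 groups were fitted together with limma 3.58.1 in R 4.3.3 (lmFit, contrasts.fit, eBayes), with Benjamini-Hochberg adjustment over all 26064 tested probes within a comparison and a call at an adjusted p under 0.01. The methods' one-way parametric test was an alternative. Precision rests on the number of arrays; the 75th percentile intensity was 532 to 1036. Intervals are 95%. The code was tested on simulated data.

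The replicate number was the slide. Deviations from the group means correlated within slides at 0.252 to 0.478 between the uninjured groups, and the numbers pair the samples there; every other comparison had a slide below 0.1. A gene's levels come from its probe with the highest mean. Members and lists were chosen with earlier results of these data known. Genes of a list were named if called (the 4 largest at most), or by lowest p where none was called, except Irf1, named after its values were seen. Non-members were taken from the 10 probes most correlated with the members, and 1 gene of these lists and 1 promoter pattern searched are not reported here. Promoter windows and gene order came from RefSeq GRCm38.p6, a build not set against the arrays' own coordinates. Figures used matplotlib 3.10.9.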

Additional observations from a re-analysis of the deposited data

How the results depend on the processing

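The members were refitted under 36 alternatives, 20 of them leaving out 1 array each, and 16 others. With the replicate number, here the slide, as a block the count of probes called after injury in wild-type was 1 in place of 0, with the scan day as a block 1, and at an adjusted p under 0.05 also 1, each time Psmb10 at 0.63. With the replicate block and an adjusted p under 0.05 it was 3 (Psmb10 and both Psmb8 probes), and with the replicate block but without the injured Myd88KO array of slide 5 it was 1, both alternatives chosen after seeing the data. The methods' one-way parametric test at an unadjusted p under 0.01 called 1 probe between injured Myd88KO and injured wild-type, Psmb10 at -0.51. The replicate block changed no other call, and leaving out 1 array at a time gave 0 to 0 calls in all 5 comparisons.

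Of 2667 alternative values 117 had the other sign, none of them called, in 28 of 80 differences, all 0.43 or smaller in size. With Xist as a covariate for sex the injured genotype difference was -0.020 for B2m (brightest probe), -0.012 for H2-K1 (brightest) and 0.0089 for Tap1, and the uninjured one -0.00059 for the third H2-K1 probe. Array weights gave 0.13 for the third B2m probe, 0.12 for the second H2-K1 and 0.12 for the dimmer Tapbp probe after injury in Myd88KO, -0.060 for the second H2-K1 probe after injury in wild-type, -0.024 for H2-K1 (brightest), 0.12 for H2-T23, 0.72 for Tap1 and 0.13 for the dimmer Tapbp probe between injured genotypes, and 0.074 for H2-D1, 0.18 for the second H2-K1 probe and 0.32 for Tap1 between the injury responses. Median scaling gave 0.061 for H2-D1 and 0.021 for Tap2 after injury in wild-type and 0.030 for the second H2-K1 probe in Myd88KO. Normexp gave -0.0056 for the third B2m probe uninjured, 0.028 for it and 0.015 for the second H2-K1 probe after injury in Myd88KO, 0.012 for the latter between the responses and 0.042 for Tap1 injured. Quantile normalization gave 0.050 for H2-D1, 0.10 for H2-K1 (brightest), 0.098 for its second probe and 0.0051 for H2-T23 between the responses, 0.015, 0.049 and 0.022 for H2-D1, the second H2-K1 probe and H2-T23 after injury in Myd88KO, -0.049 for the second H2-K1 probe in wild-type, -0.016 and -0.033 for the second and the third H2-K1 probe uninjured, and 0.075 for H2-T23 injured. The replicate block without the injured Myd88KO array of slide 5 gave 0.23 for the third B2m and 0.078 for the second H2-K1 probe after injury in Myd88KO, 0.071 for the latter between the responses, and 0.013 for H2-T23 and 0.11 for Tap1 injured.

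Leaving out 1 array at a time moved 23 differences across 0. After injury in wild-type B2m (first probe) ranged from -0.020 to 0.37, H2-D1 from -0.11 to 0.059, the second H2-K1 probe from -0.039 to 0.11 and Tap2 from -0.21 to 0.092. After injury in Myd88KO the third B2m probe ranged from -0.18 to 0.14, the second H2-K1 probe from -0.13 to 0.11, the third from -0.24 to 0.027, H2-T23 from -0.22 to 0.0011, Tap1 from -0.18 to 0.49 and the dimmer Tapbp probe from -0.24 to 0.15. Between uninjured genotypes the third B2m probe ranged from -0.020 to 0.18, the second H2-K1 probe from -0.099 to 0.12, the third from -0.14 to 0.12 and the dimmer Tapbp probe from -0.051 to 0.30. Between injured genotypes B2m (brightest) ranged from -0.060 to 0.31, H2-D1 from -0.12 to 0.12, H2-K1 (brightest) from -0.067 to 0.082, its second probe from -0.12 to 0.12, H2-T23 from -0.14 to 0.039, Tap1 from -0.35 to 0.31 and Tap2 from -0.055 to 0.22. Between the injury responses H2-D1 ranged from -0.23 to 0.011 and the second H2-K1 probe from -0.14 to 0.10. The cause of these changes was not tested.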
